A study of Drosophila melanogaster with 6 samples.

Results

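At 927 of 9412 H3K4me3 peaks on the main chromosome arms of Kc167 cells (9.85%), the histone kinase JIL-1 was called without either of the phosphoacetylated histone forms mapped beside it. These sites are called kinase-only sites here. They are the H3K4me3 peaks on 2L, 2R, 3L, 3R, X and 4 that shared at least 1 bp with a JIL-1 peak and none with an H3K9acS10ph or an H3K27acS28ph peak. They made up 14.5% of the 6390 H3K4me3 arm sites with JIL-1 and 37.7% of the 2458 sites with neither phosphoacetylated form. The sites were chosen by the presence or absence of called peaks in those 4 lists, so that pattern is given as a description and supports nothing further.

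Kc167 is a Drosophila melanogaster cell line derived from female late embryos, grown here in serum-free medium with no treatment. Chromatin was fixed with 1% formaldehyde for 10 min and precipitated with an antibody to H3K4me3, H3K4me1, H3K27ac, JIL-1, H3K9acS10ph or H3K27acS28ph, followed by sequencing (ChIP-seq). There was 1 library per antibody and no replicate, and the deposited data are lists of called peaks, with 9412 H3K4me3, 9529 H3K4me1, 5222 H3K27ac, 12295 JIL-1, 6873 H3K9acS10ph and 3223 H3K27acS28ph peaks on the arms. Read depth behind the lists is unknown, so a site without a peak is a site where none was called, which is not the same as a site without the modification. Intervals below cover counting error over peaks within these lists and treat peaks as independent, which neighbouring peaks are not.

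JIL-1 is a tandem kinase that phosphorylates serine 10 of histone H3 in interphase chromatin of the fly. When the neighbouring lysine is acetylated, the double modification is the phosphoacetylated form that the antibody to H3K9acS10ph recognises. The antibody to H3K27acS28ph recognises a phosphoacetylated form at a different serine and its neighbouring lysine. H3K4me3 marks the start of active genes, H3K4me1 marks enhancers and the flanks of promoters, and H3K27ac is an acetylation found at active promoters and enhancers. H3K27ac and H3K4me1 were not used to choose the kinase-only sites, and so they are the readouts on which the sites could be compared with others. The comparisons were with 3025 H3K4me3 arm sites that had JIL-1 and H3K9acS10ph only, with 1459 sites that had H3K9acS10ph and no JIL-1, and with 1531 sites that had neither JIL-1 nor a phosphoacetylated form, called unmarked sites here. The word unmarked refers to those lists only, as all 1531 sites had H3K4me3 and some had H3K27ac or H3K4me1. Of the 1459 sites, 256 also had an H3K27acS28ph peak, whereas none of the 3025 did.

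H3K27ac was present at 35.9% of kinase-only sites (333 of 927, 95% Wilson interval 32.9 to 39.1), well below the share at sites where JIL-1 came with H3K9acS10ph and well above that at unmarked sites. It was present at 77.6% of sites with JIL-1 and H3K9acS10ph only (2346 of 3025), at 45.4% of H3K9acS10ph sites without JIL-1 (662 of 1459) and at 12.1% of unmarked sites (186 of 1531). Over all H3K4me3 arm sites the share was 62.5%. Kinase-only sites thus lay below the share of all H3K4me3 sites, but not under every setting. JIL-1 and H3K9acS10ph were also cut to their 3223 highest-scoring arm peaks. H3K27ac was then present at 71.3% of kinase-only sites (67.3 to 74.9) and H3K4me1 at 81.6% (78.1 to 84.6). This cut kept the strongest JIL-1 peaks and dropped weaker H3K9acS10ph peaks, and the part of each was not tested. With JIL-1 in its upper 50% by score and no other change, the shares were 52.6% (48.0 to 57.1) and 57.8% (53.3 to 62.3). Under the deposited lists, the H3K27ac difference was -41.6 percentage points against sites with JIL-1 and H3K9acS10ph only (95% Newcombe interval -45.0 to -38.1). It was -9.45 points against H3K9acS10ph sites without JIL-1 (-13.4 to -5.41) and 23.8 points against unmarked sites (20.3 to 27.3).

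H3K4me1 followed the same order. It was present at 42.3% of kinase-only sites (392 of 927, 39.1 to 45.5), at 86.1% of sites with JIL-1 and H3K9acS10ph only, at 58.1% of H3K9acS10ph sites without JIL-1 and at 20.7% of unmarked sites, against 69.0% of all H3K4me3 arm sites. The differences were -43.8 points (-47.2 to -40.4), -15.8 points (-19.8 to -11.7) and 21.6 points (17.8 to 25.3). All 6 differences excluded 0. Those against sites with JIL-1 and H3K9acS10ph only kept their direction and excluded 0 under all 12 settings, from -43.6 to -23.2 points for H3K27ac and from -48.0 to -14.9 points for H3K4me1. Those against unmarked sites did so too, from 8.48 to 45.3 and from 12.8 to 44.6 points. The value of 8.48 came from the upper 50% of every list by score, where tied H3K27ac peaks were cut by chromosome order.

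**Figure D1:**
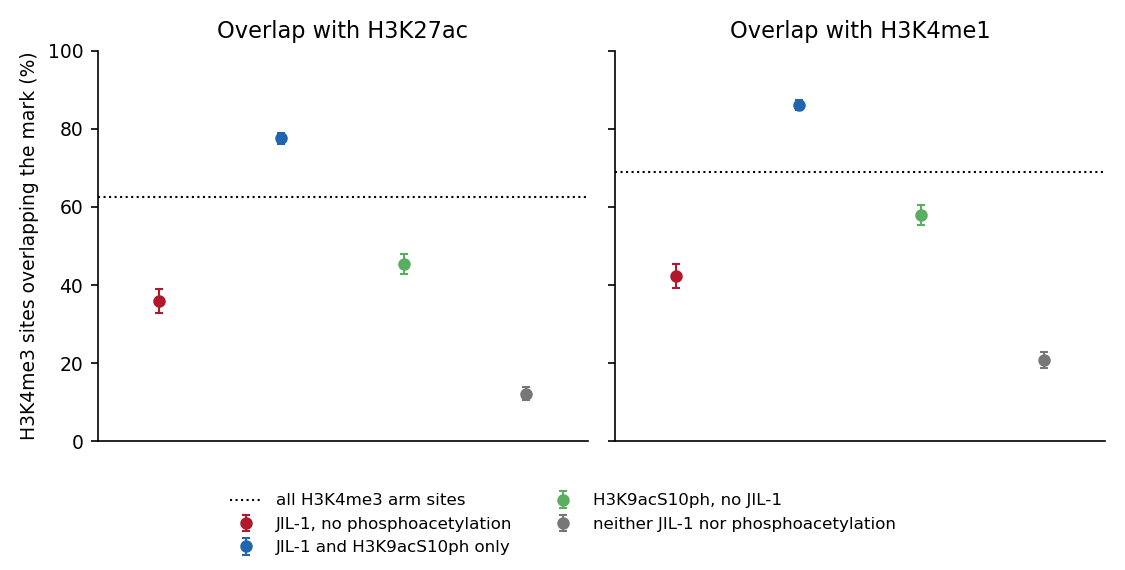
Share of H3K4me3 arm sites overlapping an H3K27ac peak (left) or an H3K4me1 peak (right), in percent, for the 4 kinds of site; points are shares, bars 95% Wilson intervals and the dotted line all 9412 arm sites. Kinase-only sites (red) stand at 35.9% and 42.3%, below the dotted line and above unmarked sites (grey) in both panels.

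The difference from H3K9acS10ph sites without JIL-1 was the least stable of the 3. With kinase-only sites limited to those with JIL-1 in the upper 50% by score, H3K27ac was 7.24 points more frequent there (2.00 to 12.4). The H3K4me1 difference was then -0.227 points (-5.43 to 4.88). The H3K9acS10ph sites without JIL-1 were not selected by strength in this setting. The H3K27ac difference was -4.57 points (-9.83 to 0.718) in the middle 50% of H3K4me3 scores, and the H3K4me1 difference was 0.717 points (-4.87 to 6.26) in the upper 50% of every list. Other settings enlarged it, to -32.4 points for H3K27ac in the upper 50% of every list (-37.6 to -26.9) and to -26.2 points for H3K4me1 when peaks had to share 50% of the shorter (-29.9 to -22.3). In the H3K27ac list, 58.2% of arm peaks scored at or above 3100. Its upper 50% therefore left out tied peaks by chromosome order and not by score.

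Both marks were present together at 279 kinase-only sites, or 30.1%, against 59.3% of all H3K4me3 arm sites. A further 54 sites had H3K27ac without H3K4me1 (5.83%, against 3.28% of all H3K4me3 arm sites). H3K4me1 without H3K27ac was present at 113 (12.2%, against 9.77%). The remaining 481 kinase-only sites (51.9%, 48.7 to 55.1) had neither, against 2124 of the other 8485 arm sites (24.1% to 26.0%). At these 481 sites the kinase and H3K4me3 were the only calls among the 6 lists.

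The H3K4me3 peaks at kinase-only sites were narrow and weak. Their median width was 1046 bp (exact 95% interval of the median 1008 to 1077), with quartiles of 829 and 1332 bp and a range from 597 to 12476 bp. Medians were 1325 bp at sites with JIL-1 and H3K9acS10ph only (1300 to 1347), 1077 bp at H3K9acS10ph sites without JIL-1 (1058 to 1099) and 887 bp at unmarked sites (873 to 902). The authors' score, read as -10 times log10 of a p-value and used only within a list, had a median of 107 at kinase-only sites and medians of 545, 128 and 77.6 at the other 3 kinds. Only 24 kinase-only sites (2.59%) had an H3K4me3 score at or above 3100, the value at which scores pile up, against 26.9% of sites with JIL-1 and H3K9acS10ph only. A wider peak is more likely to touch any other peak, so width is linked to the rule itself and these medians carry no test.

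The H3K27ac difference from sites with JIL-1 and H3K9acS10ph only held at every width. Across the quartiles of H3K4me3 width over all arm sites, from the narrowest to the widest, H3K27ac was present at 28.7%, 35.6%, 41.3% and 50.9% of kinase-only sites. At sites with JIL-1 and H3K9acS10ph only the shares were 62.8%, 76.9%, 80.7% and 84.4%, and the 4 differences lay between -41.2 and -33.5 points, all with intervals below 0. At unmarked sites the shares were 10.0%, 16.0%, 11.4% and 18.3%, and all 4 differences were above 0. Against H3K9acS10ph sites without JIL-1, the difference excluded 0 in the lower 2 width quartiles, at -12.9 and -9.65 points, and included it in the upper 2, at -4.48 (-13.2 to 4.48) and -6.13 points (-18.2 to 6.17).

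The strength of the H3K4me3 peak moved with H3K27ac much more than its width did. In the lowest quartile of H3K4me3 score, H3K27ac was present at 18.8% of 389 kinase-only sites and at 53.0% of sites with JIL-1 and H3K9acS10ph only, a difference of -34.2 points (-40.2 to -27.8). In the second quartile the shares were 27.8% and 53.5%. In the third quartile, between scores of 266 and 3100, they were 80.4% of 179 kinase-only sites and 88.1%, and the difference shrank to -7.62 points (-14.3 to -2.05). In that quartile the share at unmarked sites was 71.3% of 87 sites, and the difference of 9.18 points (-1.43 to 20.6) included 0. At scores of 3100 or more there were 24 kinase-only sites, and 23 of them overlapped H3K27ac. Against H3K9acS10ph sites without JIL-1 the H3K27ac difference excluded 0 in the lowest score quartile, at -12.1 points (-17.6 to -6.45), and included it in the other 3, among them -0.262 points (-6.30 to 5.97) in the second and 5.45 points (-2.50 to 12.9) in the third.

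**Figure D2:**
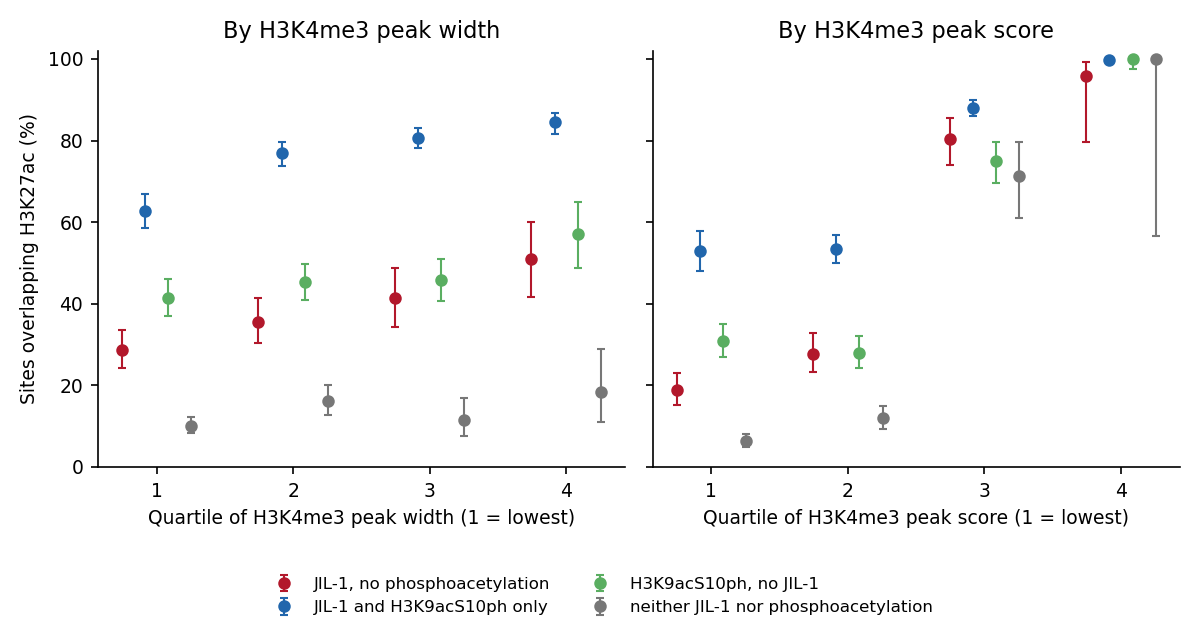
Share of H3K4me3 arm sites overlapping H3K27ac, in percent, by quartile of H3K4me3 peak width (left) and of H3K4me3 peak score (right) over all arm sites; points are shares and bars 95% Wilson intervals. Kinase-only sites (red) run from 28.7% to 50.9% across width quartiles and from 18.8% to 95.8% across score quartiles, with 24 sites in the last.

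The JIL-1 peaks at kinase-only sites were of middling strength within their own list. The strongest JIL-1 peak at a site had a median score of 159 (146 to 174), with quartiles of 81.0 and 373. This median stood at the percentile 49.1 of JIL-1 arm peaks. The medians were 340 (percentile 68.6) at sites with JIL-1 and H3K9acS10ph only and 514 (percentile 77.4) at the 2345 sites with JIL-1 and both phosphoacetylated forms. A JIL-1 peak in the upper 10% of the JIL-1 arm list was present at 92 kinase-only sites (9.92%), and one in its upper 50% at 456 (49.2%). These shares were near those of the list itself. They compare with 16.1% and 72.0% at sites with JIL-1 and H3K9acS10ph only, and with 22.0% and 83.9% at sites with both phosphoacetylated forms. With the upper 50% taken over all scaffolds instead of the arms, 460 kinase-only sites had such a JIL-1 peak. Among these 460, the JIL-1 peak touched a phosphoacetylated peak outside the H3K4me3 peak at 18.7% (15.4 to 22.5).

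The overlap with JIL-1 was not a matter of touching edges. JIL-1 covered a median of 786 bp of a kinase-only site, or 82.4% of its length, as it did at sites with JIL-1 and H3K9acS10ph only, where the median was 81.1%. It covered the whole H3K4me3 peak at 221 kinase-only sites (23.8%) and under 200 bp of it at 52 (5.61%). A second JIL-1 peak was present at 59 sites. At 168 sites (18.1%) a JIL-1 peak also reached another H3K4me3 site, so the 927 sites rest on 943 JIL-1 peaks and are not all separate. At 107 sites (11.5%, 9.64 to 13.8) the JIL-1 peak touched a phosphoacetylated peak outside the H3K4me3 peak.

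Among kinase-only sites, those with stronger JIL-1 carried the other marks more often. In quartiles of their JIL-1 score from lowest to highest, H3K27ac was present at 18.5%, 19.9%, 39.2% and 65.9%, and H3K4me1 at 25.9%, 26.8%, 45.7% and 70.7%. The highest quartile, with scores from 373 to 3228, exceeded the lowest, with scores up to 81.0, by 47.4 points for H3K27ac (39.0 to 54.7) and by 44.8 points for H3K4me1 (36.2 to 52.4). The H3K4me3 peak was stronger there too, with a median score of 299 at kinase-only sites with both marks against 88.2 at those with neither. The JIL-1 medians of those sites were 337 and 111, so JIL-1 score, H3K4me3 score and both marks moved together, and the part of each was not tested.

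When sites with JIL-1 and H3K9acS10ph only were divided at the same JIL-1 scores, their H3K27ac shares were 55.0%, 64.6%, 74.5% and 88.9%. The differences were -36.4, -44.7, -35.3 and -23.0 points, and all 4 intervals excluded 0. For H3K4me1 the differences ran from -51.7 to -23.2 points, again with all intervals below 0. Within each JIL-1 score bin, sites without a called H3K9acS10ph peak thus had H3K27ac and H3K4me1 less often. The highest bin was wide, with scores of kinase-only sites from 373 to 3228. H3K4me3 scores, with medians of 107 and 545 at the kinds of site compared, were not matched.

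**Figure D3:**
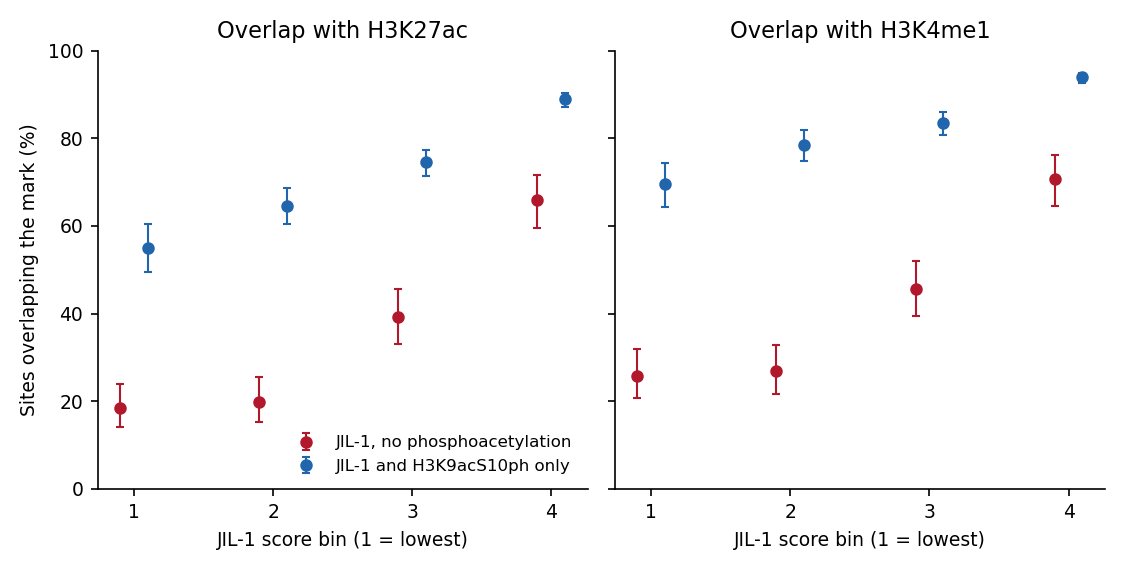
Share of sites overlapping H3K27ac (left) or H3K4me1 (right), in percent, in 4 bins of JIL-1 score set by the quartiles of kinase-only sites; points are shares and bars 95% Wilson intervals. Kinase-only sites (red) rise from 18.5% to 65.9% for H3K27ac and stay below sites with JIL-1 and H3K9acS10ph only (blue) in every bin.

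Under the deposited lists, 305 kinase-only sites lay within 1000 bp of a phosphoacetylated peak. The gap between the H3K4me3 peak and the nearest H3K9acS10ph or H3K27acS28ph peak had a median of 2037 bp (1774 to 2260), quartiles of 630 and 5648 bp and a longest value of 158831 bp. The nearest peak was H3K9acS10ph at 841 sites (90.7%). The median gap was 2234 bp to H3K9acS10ph and 9058 bp to H3K27acS28ph. Unmarked sites, which the rule likewise kept clear of both lists, had a median gap of 3249 bp (2998 to 3597). Under 1000 bp lay 32.9% of kinase-only and 23.9% of unmarked sites, and at 5000 bp or more lay 27.6% of kinase-only and 38.6% of unmarked sites. The gaps run to the lists that define both kinds of site, so they are a description with no test. They also changed when the lists were cut by score. The median gap of kinase-only sites was 4871 bp in the upper 50% of each list. It was 4937 bp with JIL-1 and H3K9acS10ph cut to 3223 arm peaks.

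H3K27ac at kinase-only sites did not fall steadily with this distance. The share was 40.8% at the 191 sites with a gap under 500 bp, 38.6% from 500 to 1000 bp, 32.9% from 1000 to 2000 bp, 31.3% from 2000 to 5000 bp, 42.4% from 5000 to 10000 bp and 31.3% at the 131 sites at 10000 bp or more (24.0 to 39.7). At unmarked sites it was 29.1% under 500 bp (23.6 to 35.3) and 4.57% at 10000 bp or more (2.79 to 7.41). H3K4me1 at kinase-only sites did not fall steadily either. Its shares in the same bins were 55.5% (48.4 to 62.4), 43.0%, 41.9%, 34.6%, 47.2% (38.7 to 55.9) and 30.5% (23.3 to 38.9). At 10000 bp or more from any phosphoacetylated peak, H3K27ac was thus still present at kinase-only sites and rare at unmarked ones, and the 2 intervals did not overlap.

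**Figure D4:**
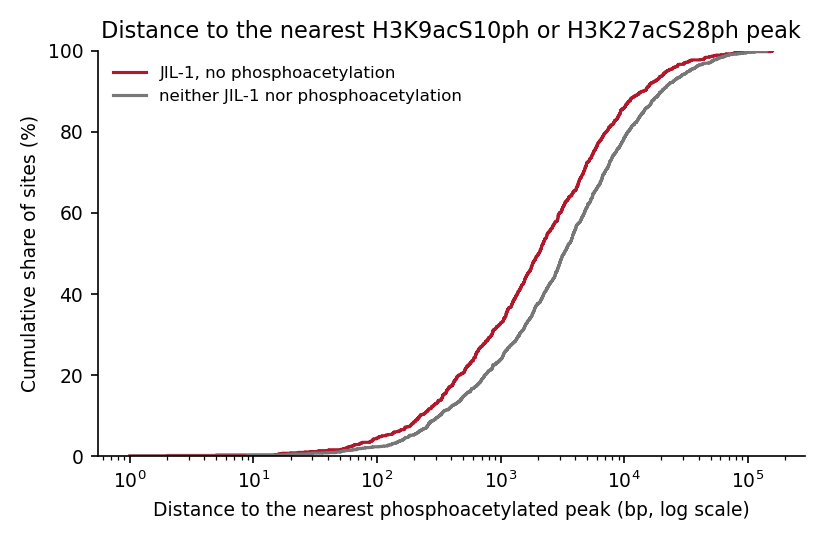
Cumulative share of sites, in percent, by distance in bp (log scale) to the nearest H3K9acS10ph or H3K27acS28ph peak, for 927 kinase-only sites (red) and 1531 unmarked sites (grey). The red curve lies to the left, with medians of 2037 and 3249 bp.

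The edge of the class is narrow in places. The nearest kinase-only sites to a phosphoacetylated peak were chr3L:21512138-21513604, with a gap of 1 bp, chr3L:14787876-14788928, with 2 bp, and chr3L:1104148-1105169, with 5 bp. Just outside the rule, sites with JIL-1 overlapped a phosphoacetylated peak by 2 bp at chr2R:2874896-2875966, by 4 bp at chr3R:16445483-16446338 and by 6 bp at chr3R:8860578-8862011. Coordinates here are 1-based with both ends included, on scaffolds named as in release 5 of the fly genome. Genes at these positions were not analysed here. The 622 kinase-only sites at 1000 bp or more from such a peak had H3K4me1 at 38.1%.

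Where kinase-only sites carried H3K27ac, the acetylated peak was usually much wider than the H3K4me3 peak. The H3K27ac peaks at the 333 sites had a median width of 3325 bp (2637 to 3882), against 3545 bp (3390 to 3682) at sites with JIL-1 and H3K9acS10ph only. At 136 of the 333 (40.8%, 35.7 to 46.2) the same H3K27ac peak touched a phosphoacetylated peak elsewhere along its length, and at 162 (48.6%) it overlapped another H3K4me3 site. At unmarked sites with H3K27ac the H3K27ac peak touched a phosphoacetylated peak in 50.5% of 186 cases (43.4 to 57.6). The whole kinase-only H3K4me3 peak lay inside H3K27ac at 225 of the 333 sites (67.6%). H3K4me1 reached past both ends of the H3K4me3 peak at 187 of the 392 sites with it (47.7%) and past 1 end at 195 (49.7%). At sites with JIL-1 and H3K9acS10ph only, both ends were passed at 54.0% (52.1 to 56.0).

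Some kinase-only sites were direct neighbours along the chromosome. Among 923 of them with an H3K4me3 site on either side, 310 (33.6%, 30.6 to 36.7) had another kinase-only site as a direct neighbour. This was so for 16.6% of sites with JIL-1 and H3K9acS10ph only, 15.8% of H3K9acS10ph sites without JIL-1 and 21.9% of unmarked sites. Neither neighbour was phosphoacetylated at 16.4% of kinase-only sites, 5.72% of sites with JIL-1 and H3K9acS10ph only and 17.1% of unmarked sites. The share with a kinase-only neighbour over all H3K4me3 arm sites was not computed. At 168 kinase-only sites (18.1%) a JIL-1 peak also reached another H3K4me3 site, which places JIL-1 on both. The lists that define the sites also define their neighbours, so these shares are a description.

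The large chromosome arms had similar shares of kinase-only sites. They made up 10.4% of H3K4me3 sites on 2L (8.97 to 12.1), 9.66% on 2R, 10.3% on 3L, 9.05% on 3R (7.93 to 10.3) and 9.74% on X (8.42 to 11.2). On 4 they made up 23.9% of 46. The H3K27ac share of kinase-only sites was 49.7% on 2L (41.9 to 57.5), 30.4% on 2R, 31.0% on 3L, 28.7% on 3R (22.9 to 35.3) and 41.8% on X (34.6 to 49.4). Over all H3K4me3 sites it was 65.0%, 61.2%, 59.7%, 62.6% and 64.5% on the same arms. On 4, 8 of 11 kinase-only sites and 39 of all 46 H3K4me3 sites had H3K27ac (84.8%). The H3K27ac share of kinase-only sites on 2L exceeded that on the other arms by 16.5 points (8.04 to 24.9), in a comparison chosen after the values were seen. Unmarked sites also had their highest share among the large arms on 2L, at 21.1%.

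Against sites with JIL-1 and H3K9acS10ph only, the H3K27ac share of kinase-only sites was lower on 6 of 6 arms, and against unmarked sites it was higher on 6 of 6. Against H3K9acS10ph sites without JIL-1 it was lower on 4 arms and higher on 2. The differences were 1.25 points on 2L (-8.64 to 11.1) and 1.66 points on X (-7.84 to 11.3), where the intervals included 0. They were -12.8 on 2R, -15.3 on 3L and -18.7 points on 3R (-26.6 to -10.2), where the intervals excluded it. H3K4me1 was lower on 6 of 6 arms in this comparison, and the interval excluded 0 on 3.

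**Figure D5:**
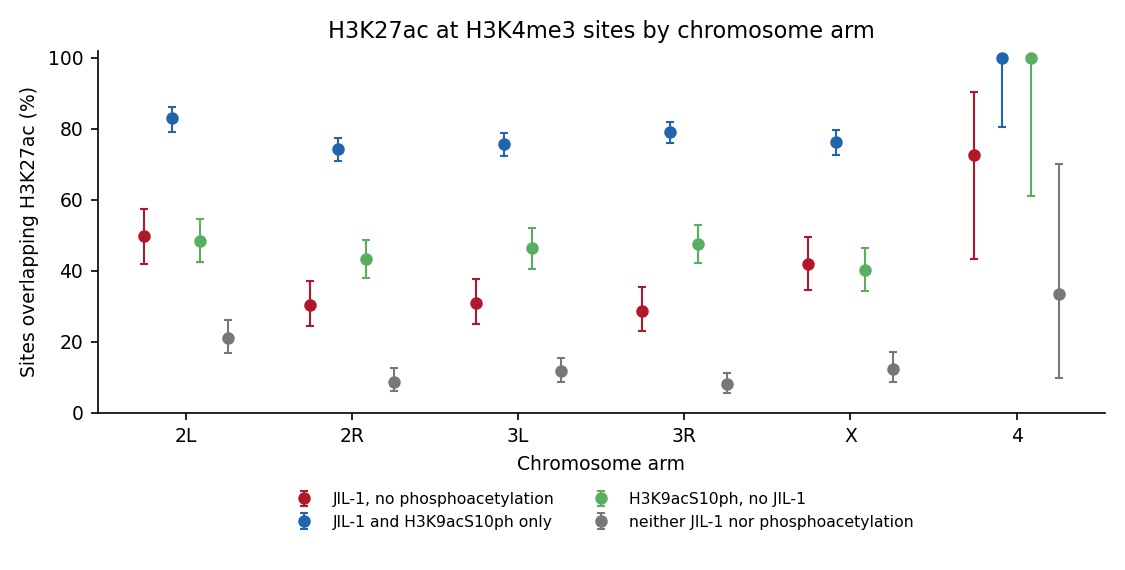
Share of H3K4me3 sites overlapping H3K27ac, in percent, on each chromosome arm; points are shares and bars 95% Wilson intervals. Kinase-only sites (red) run from 28.7% on 3R to 49.7% on 2L among the large arms and lie below sites with JIL-1 and H3K9acS10ph only (blue) on every arm.

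The 5 kinase-only sites ranked highest by JIL-1 score, with ties broken by H3K4me3 width, all carried H3K27ac and H3K4me1. The first was chrX:18264631-18266753, under a JIL-1 peak of 1912 bp with a score of 3228, the highest score in the JIL-1 list, and its nearest phosphoacetylated peak was 1619 bp away. After it came chrX:17779956-17781577, chr2L:5799393-5800461, chr3L:710912-711945 and chrX:9576745-9580188, with JIL-1 scores from 3104 to 3168 and gaps from 263 to 2878 bp. Their H3K4me3 scores ran from 308 to 1493, all below the pile-up at 3100. Both marks were not present at all 17 kinase-only sites with a JIL-1 score at or above 3100. A site with H3K27ac and no H3K4me1 had a JIL-1 score of 3104 as well. Sites with neither mark reached a JIL-1 score of 3100.

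The widest kinase-only sites, too, all had both marks. The first was chr2L:1074855-1087330 (12.5 kb) with the nearest phosphoacetylated peak 16.1 kb away. Another pair, chr3R:18883859-18896331 (12.5 kb) and chr3R:18875510-18883655 (8.15 kb), lay side by side under a single JIL-1 peak of 15134 bp whose score was only 173. The others were chr3R:16921659-16929993 and chrX:15722055-15729799.

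The kinase-only sites farthest from phosphoacetylation were chr2L:3871851-3872645, 159 kb from the nearest such peak, and chr2L:3867519-3868247, chr3L:10080523-10081479, chr2L:3812514-3813611 and chr3R:15142837-15143536, 79.2 kb away. The 3 sites on 2L shared a stretch of 512 kb, chr2L:3713020-4225372, without an H3K9acS10ph or H3K27acS28ph peak. It held 13 JIL-1, 7 H3K27ac and 12 H3K4me1 peaks and 6 H3K4me3 sites, of which 5 were kinase-only. All 6 sites overlapped H3K27ac, and 2 of the 5 kinase-only sites overlapped H3K4me1. The stretches around the other sites differed from it: that on 3L, of 250 kb, held 6 JIL-1 and no H3K27ac peak, and that on 3R, of 164 kb, held 5 JIL-1 and neither H3K27ac nor H3K4me1 peaks.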

How the data were processed

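The authors deposited 1 peak list per antibody, giving the position of every peak and its score. Bowtie 0.12.5 was the aligner, per the submitters' processing notes, and the peaks are named after the caller MACS. No source used here gives its settings, an input control or the build. The score was read as -10 times log10 of the p-value, since the lowest values stand at about 50, and was compared only within a list. Scaffold names are those of release 5, while the gene table at hand describes release 6, so genes and sequences are not used here.

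Peaks overlapped when they shared at least 1 bp, and gaps ran between nearest ends. Shares have 95% Wilson intervals, differences Newcombe intervals, called when they excluded 0, and medians exact order-statistic intervals. With 1 library per antibody no p-value was computed. Members, comparisons and alternatives were chosen with earlier results of these data known. The sites named are the 5 with the highest JIL-1 scores, the 5 widest, the 5 farthest from phosphoacetylation and 3 on each side of the rule. Ties were broken by H3K4me3 width, then by position. The alternatives are given in the closing section; the middle 50% of H3K4me3 scores and the comparison without 2L were added after seeing the data. Work was done in Python 3.11.15 with pandas 2.3.3, scipy 1.17.1 and numpy 2.4.6, and overlap and interval routines were tested on simulated data.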

Additional observations from a re-analysis of the deposited data

How the results depend on the processing

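The number of kinase-only sites, 927, was 511 with the upper 50% of each list by score, 543 with JIL-1 and H3K9acS10ph cut to 3223 arm peaks, 1643 with 1000 bp windows around midpoints, 470 in the middle 50% of H3K4me3 widths, 460 with JIL-1 peaks in their upper 50% and 537 in the middle 50% of H3K4me3 scores. The difference from H3K9acS10ph sites without JIL-1 changed when kinase-only sites, but not the sites compared, were limited by strength, to JIL-1 in its upper 50%. It turned to 7.24 points for H3K27ac and became -0.227 points for H3K4me1. It turned to 0.717 points for H3K4me1 in the upper 50% of each list, and was -4.57 points for H3K27ac in the middle 50% of H3K4me3 scores. It grew to -32.4 points for H3K27ac in the upper 50% of each list and to -26.2 points for H3K4me1 when peaks had to share 50% of the shorter. The cause was not tested. Of H3K27ac arm peaks, 58.2% scored at or above 3100, so the upper 50% of that list was cut among ties by chromosome order. With JIL-1 and H3K9acS10ph cut to 3223 arm peaks, 71.3% of kinase-only sites had H3K27ac and 81.6% H3K4me1, above the shares of all H3K4me3 arm sites. These settings choose other sites, so the values do not follow 1 set of sites. Overlap of 50% of the shorter peak, a gap of 1000 bp, all scaffolds, and leaving out X or 2L changed no call. No paired analysis was possible because each antibody had 1 library. Depth and antibody efficiency, which are unknown, limit every statement on a missing peak.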

Other observations

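On chromosome 4, 11 of 46 H3K4me3 sites were kinase-only (23.9%, 95% Wilson interval 13.9 to 37.9), against 9.78% of the 9366 sites on the other arms, a difference of 14.1 points (4.11 to 28.2). The arm was singled out after its value was seen. Of the 11 sites, 8 overlapped H3K27ac and 3 overlapped H3K4me1, and over all 46 sites on the arm 39 overlapped H3K27ac (84.8%) and 18 overlapped H3K4me1 (39.1%). On each of the other arms H3K4me1 was the more frequent mark, at kinase-only sites and over all H3K4me3 sites alike. The JIL-1 scores of the 11 kinase-only sites on 4 ran from 54.1 to 1943 with a median of 681 (54.9 to 1853). Their gaps to a phosphoacetylated peak ran from 1054 to 31652 bp with a median of 10687 bp (1224 to 22099). With 11 sites, both intervals span most of the range.

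Off the main arms, 10 further H3K4me3 peaks met the same overlaps, on scaffolds of heterochromatin or unplaced sequence, and were not analysed further.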
